A study of Mus musculus with 13 samples.

Results

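The integrin and laminin genes are 32 of the 16390 genes with a symbol on a mouse expression array. They were chosen by symbol, as every gene named as an integrin alpha chain (Itga), an integrin beta chain (Itgb) or a laminin chain (Lama, Lamb, Lamc) in the annotation of the array. The 32 comprise 16 alpha chains, 7 beta chains and 9 laminin chains, each read by 1 probe. Integrin and laminin genes outside this set were not analysed here. The series concerns cardiac reprogramming under defined culture conditions, in which transduced transcription factors turn fibroblasts into induced cardiomyocyte-like cells (iCMs). Gene expression was measured on 13 single-colour arrays with 1 array per group, so no group had a replicate culture or animal. The GMT iCMs (made with Gata4, Mef2c and Tbx5) were cells sorted for GFP driven by the cardiac αMHC promoter. They were collected 4 or 2 weeks after transduction from FFV, serum-free (SF) or serum-containing (FBS) medium, which gave 6 arrays. FFV and SF media both lack serum, and FFV holds added FGF2, FGF10 and VEGF. A difference of FFV minus FBS thus combines the lack of serum with the added factors. The MT iCMs (Mef2c and Tbx5) came from FFV medium on 1 array. The GMTMM iCMs (GMT with Mesp1 and Myocd) were made from tail-tip fibroblasts in FFV and in FBS, on 1 array each. The remaining arrays held the heart at postnatal day 1 (P1), the heart at embryonic day 12 (E12), mouse embryonic fibroblasts (MEFs) and tail-tip fibroblasts (TTFs). The labels give no time or sort for the MT and GMTMM iCMs, no cell of origin for the GMT and MT iCMs, which are set beside MEFs here as in the series, and no strain for any group.

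Integrins are receptors made of 1 alpha and 1 beta chain that span the cell membrane, hold the cell to its matrix and pass signals to the cytoskeleton. Laminins are cross-shaped proteins of 1 alpha, 1 beta and 1 gamma chain and form the sheet of a basement membrane. In heart and skeletal muscle each fibre lies in a basement membrane rich in the laminin alpha 2 chain, which the cell holds through integrin alpha 7 beta 1 and through dystroglycan. The alpha chain sets most of the ligand choice: some alpha chains bind collagen, some laminin, some the RGD motif of fibronectin, vitronectin and nephronectin, and some are made by leukocytes.

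The starts of Itga8, Lama2 and Lamb2 are shown because these chains had the 3 highest fitted differences of SF minus FBS among the members tested, as described below. Each is the stretch of 250 bases before the gene's start in RefSeq (GRCm38.p6), written in the direction of the gene. The windows are chr2:12301945-12302194 on the minus strand for Itga8, chr10:27616943-27617192 on the minus strand for Lama2 and chr9:108479612-108479861 on the plus strand for Lamb2. Capitals mark matches, on either strand, to motifs of factors named in the labels or of heart muscle.
Itga8: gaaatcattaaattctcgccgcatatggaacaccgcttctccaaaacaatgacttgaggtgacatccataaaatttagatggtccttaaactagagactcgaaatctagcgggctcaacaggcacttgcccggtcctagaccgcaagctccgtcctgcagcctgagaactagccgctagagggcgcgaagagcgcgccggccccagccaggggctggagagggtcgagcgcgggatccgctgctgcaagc
Lama2: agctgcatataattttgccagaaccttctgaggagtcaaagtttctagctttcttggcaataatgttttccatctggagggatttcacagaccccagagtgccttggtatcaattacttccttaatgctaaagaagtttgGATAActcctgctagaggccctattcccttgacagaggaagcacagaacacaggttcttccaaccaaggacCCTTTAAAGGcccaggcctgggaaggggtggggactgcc
Lamb2: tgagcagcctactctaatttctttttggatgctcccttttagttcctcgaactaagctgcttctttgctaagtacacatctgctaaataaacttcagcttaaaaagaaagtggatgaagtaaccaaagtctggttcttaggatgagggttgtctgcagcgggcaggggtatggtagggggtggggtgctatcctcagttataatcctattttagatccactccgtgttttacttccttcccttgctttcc
The motifs searched were GATAA (GATA factors), GGTGTG (T-box factors), the MEF2 site and the CArG box of SRF. Lama2 held GATAA and a CArG box, which do not overlap, and the windows of Itga8 and Lamb2 held no match to the 4 motifs. Of 32851 RefSeq windows of this length, 22.6% held GATAA, 16.3% GGTGTG, 0.508% a MEF2 site and 1.47% a CArG box. Among the 24 windows of the 21 members with an entry, GATAA occurred in Itgax and Lama2, GGTGTG in Itga4, Itgav and Itgb7, the CArG box in Itgb6 and Lama2, and the MEF2 site in 0. A match is a description of the letters and not of binding.

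A level here is the log2 of the spot signal after background correction with an offset of 50 and quantile normalisation, on which the lowest value was 5.65 and differences of dim genes are compressed. Levels are compared between arrays for 1 probe, not between probes. Between 80.2% and 91.5% of 23473 probes per array lay well above background, that is above the mean of the blank spots by 2 SD. The array identifiers fall into 3 series, 1 with the E12 heart beside all GMT iCMs, 1 with the P1 heart beside MEFs, and 1 with GMTMM iCMs, MT iCMs and TTFs. Differences between cells on different series cannot be told apart from differences between the series. The blank spots had a mean of 39.9 to 41.1 on the GMTMM, MT and TTF arrays and 13.1 to 15.4 on the others. The ratio of the median probe signal to that mean was 1.54 to 1.65 on the GMTMM, MT and TTF arrays. On the others it was 2.70 to 3.46. The mean level of 10 cardiomyocyte markers was 9.70 to 10.68 in GMT iCMs, 7.98 in MT iCMs and 6.23 to 6.95 in GMTMM iCMs, against 12.28 to 12.96 in hearts and 5.85 to 5.97 in fibroblasts. The local surround of a spot tended to be bright where the spot was bright. For Lama2 the spot read 379 and its surround 398 in GMT iCMs at 2 weeks in SF, against 26.0 and 20.0 in MEFs, so values with the surround subtracted are given beside results they change.

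**Figure D1:**
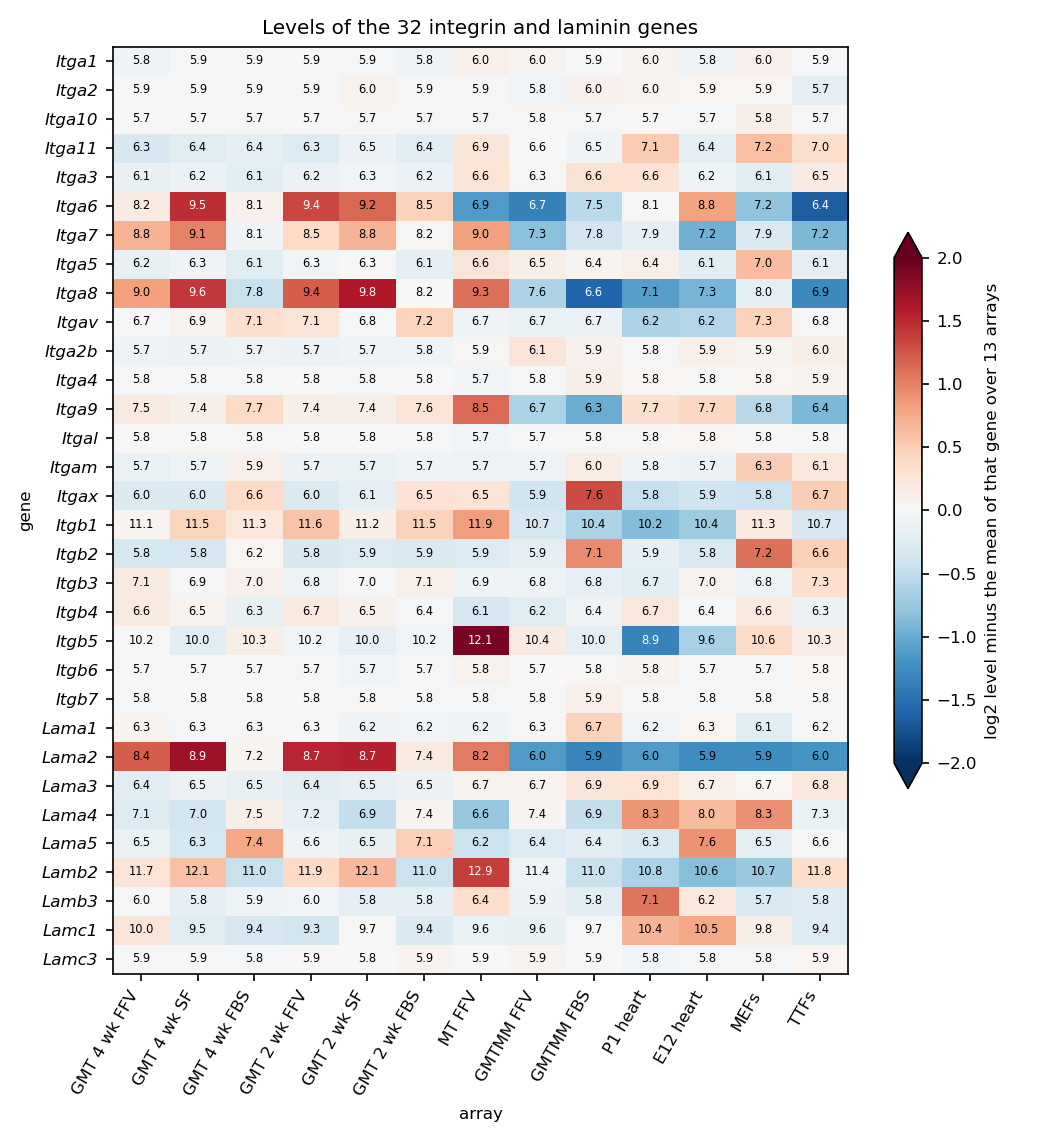
Levels of all 32 integrin and laminin genes (rows, by role) on the 13 arrays (columns). Numbers are log2 levels, and colour is the level minus that gene's mean over the arrays, so colours compare arrays within a row. Lama2 and Itga8 are red in GMT iCMs in FFV and SF and in MT iCMs, Itgb5 and Lamb2 are highest in MT iCMs, and many rows hardly vary.

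Of the 32 members, 23 lay well above background on all 13 arrays, 6 on 8 to 12 arrays and 3 on 5 or fewer. The 3 were Itga10 (collagen receptor), Itgb6 (an epithelial chain) and Itgam (the macrophage chain CD11b), above background on 1, 3 and 5 arrays. The highest and lowest arrays differed by 2 or more on the log2 scale for 6 members, namely Itgb5 (3.23), Itga8 (3.18), Itga6 (3.12), Lama2 (2.99), Lamb2 (2.24) and Itga9 (2.14). The range was under 1 for 17 members. The values of 17 members are described below because they passed a test, were 2-fold apart in a comparison or had a wide range. The other 15 had ranges between 0.09 and 1.14. Among them the collagen receptors were nearly flat, with Itga1 between 5.82 and 6.001 and Itga2 between 5.72 and 5.98, except for Itga11, a fibroblast collagen receptor, which had 7.22 in MEFs, 6.98 in TTFs and 7.13 in the P1 heart and 6.29 to 6.51 in the GMT iCMs. Itga5, the fibronectin receptor chain, was highest in MEFs at 6.96 and lay at 6.10 to 6.60 elsewhere. Lamc1, the gamma chain of most laminins, was at 10.38 and 10.47 in P1 and E12 hearts, above the 9.34 to 9.95 of the other 11 arrays.

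GMT iCMs in FFV and SF had higher levels of Itga8, Lama2 and Lamb2 and lower levels of Lama5 than those in FBS. In the fit of GMT and GMTMM iCMs together only Itga8 passed the test, for SF minus FBS. Itga8 is the alpha chain of the nephronectin receptor alpha 8 beta 1. Its level at 4 and 2 weeks was 9.02 and 9.41 in FFV and 9.62 and 9.80 in SF, against 7.76 and 8.21 in FBS. In GMTMM iCMs it was 7.58 in FFV, against 6.62 in FBS. Every FFV and SF array of the GMT iCMs lay above both FBS arrays, and both GMTMM arrays lay below all GMT arrays. Medium was tested with limma on the 8 GMT and GMTMM arrays, with a further term for the GMTMM iCMs and each GMT time, so these 3 contexts stand in for replicates. SF was grown only in GMT iCMs, so the GMTMM pair enters SF minus FBS only through the shared fit. SF exceeded FBS by 1.68 ± 0.14 (log2, SE; limma, adjusted p = 0.0492), and this was the 1 member called of 30 tested, with 0.0459% of all genes called. The call was lost when the surround was subtracted (1.26), without a mean-variance trend, and without either GMT time (1.78 without 2 weeks and 1.53 without 4 weeks). FFV exceeded FBS by 1.14 ± 0.12 for Itga8 (limma, adjusted p = 0.112).

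**Figure D2:**
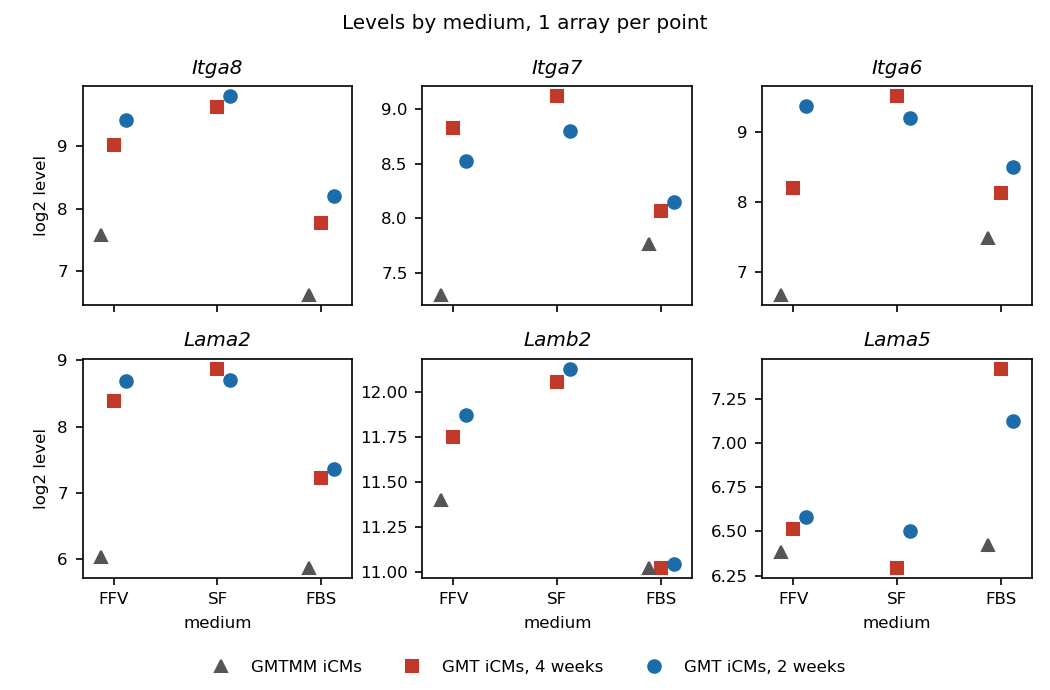
Log2 levels of 6 members by medium, with 1 array per point. Triangles are GMTMM iCMs, which have no SF array, squares GMT iCMs at 4 weeks and circles GMT iCMs at 2 weeks. Itga8, Lama2 and Lamb2 are higher in FFV and SF than in FBS in GMT iCMs, and Lama5 is lower.

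The heart and muscle laminin chain Lama2 had 8.39 and 8.69 in FFV and 8.87 and 8.71 in SF at 4 and 2 weeks, against 7.22 and 7.36 in FBS. In GMTMM iCMs it was 6.04 in FFV, against 5.88 in FBS, near the level of fibroblasts. The groups did not overlap in GMT iCMs, but the difference over all contexts was 1.32 ± 0.28 for SF minus FBS (limma, adjusted p = 0.188) and 0.89 ± 0.24 for FFV minus FBS (adjusted p = 0.332). With the surround subtracted these differences were -0.07 and 0.28. Lamb2, the beta chain found with Lama2 in heart muscle, had 11.75 and 11.87 in FFV and 12.05 and 12.13 in SF, against 11.02 and 11.04 in FBS. It was 11.40 in FFV, against 11.02 in FBS, in GMTMM iCMs. Here too every FFV and SF array lay above the FBS array of its context, with 0.99 ± 0.16 for SF minus FBS (limma, adjusted p = 0.133) and 0.64 ± 0.13 for FFV minus FBS (adjusted p = 0.220), and 1.02 and 0.55 with the surround subtracted. RefSeq also lists the name Lamb2 as an older synonym of Lamc1, whose own probe had other values.

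Lama5, a chain of many adult basement membranes, was lower, with 6.51 and 6.58 in FFV and 6.29 and 6.50 in SF, against 7.42 and 7.13 in FBS. In GMTMM iCMs it was flat, at 6.38 in FFV, against 6.42 in FBS. The fitted differences were -0.76 ± 0.20 for SF and -0.50 ± 0.17 for FFV, each minus FBS (limma, adjusted p = 0.250 and 0.417). Itga7, the muscle laminin receptor chain, had 8.83 and 8.53 in FFV and 9.12 and 8.81 in SF, against 8.07 and 8.15 in FBS. Its GMTMM values were 7.30 in FFV, against 7.77 in FBS, so that GMT and GMTMM iCMs differed in direction. Itga6, a laminin receptor chain of epithelia and stem cells, had 8.21 and 9.37 in FFV and 9.51 and 9.19 in SF, against 8.13 and 8.49 in FBS. Within each GMT time both FFV and SF lay above FBS, by 0.08 and 0.87 for FFV and by 1.38 and 0.70 for SF at 4 and 2 weeks. At 2 weeks the Itga6 spot read 638 and its surround 509 in FFV and 555 and 483 in SF, against 362 and 222 in FBS. The spot thus exceeded its surround by less in FFV and SF than in FBS at 2 weeks, and by more at 4 weeks. In GMTMM iCMs Itga6 was lower, with 6.68 in FFV, against 7.49 in FBS. The laminin chain Lama4, known from vessels, had 7.12 and 7.23 in FFV and 7.02 and 6.92 in SF, against 7.51 and 7.45 in FBS. The FBS arrays lay above the FFV and SF arrays.

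For FFV minus FBS, 0 of 30 members passed (limma), against 0.0393% of all genes. At an unadjusted p under 0.05 there were 8 of 30, against 10.7% of all genes. For SF minus FBS the unadjusted count was also 8 of 30, against 1985 of 15267 genes. Fitted on the 6 GMT arrays alone, SF minus FBS called 7 of 28 members, with 11% of all genes called (5.03% higher and 5.95% lower), and FFV minus FBS called 5, with 4.12% of all genes (1.77% higher and 2.35% lower). The 7 were Itga7 (0.86 ± 0.14), Itga8 (1.72 ± 0.12), Lama2 (1.499 ± 0.14) and Lamb2 (1.06 ± 0.12), which were higher in SF, and Itgax (-0.57 ± 0.06), Lama4 (-0.51 ± 0.11) and Lama5 (-0.87 ± 0.13), which were lower, with adjusted p between 0.00258 and 0.0355 (limma). The 5 were Itga8 (1.23 ± 0.12), Lama2 (1.25 ± 0.14) and Lamb2 (0.77 ± 0.12), higher in FFV, and Itgax (-0.63 ± 0.06) and Lama5 (-0.73 ± 0.13), lower. These fits rest on 2 arrays per medium and on the spread between the times, and they do not subtract the surround. For Lama2 the spot read 441 and its surround 424 in SF at 4 weeks, against 125 and 111 in FBS. At 2 weeks they read 379 and 398 in SF, against 140 and 147 in FBS, so the calls of Lama2 depend on the surround. For Itgax at 4 weeks the spot and surround read 69.6 and 65.6 in FBS. They read 24.5 and 19.5 in SF and 25.0 and 18.2 in FFV. The Itgax spot thus exceeded its surround by more in SF and FFV than in FBS at 4 weeks, and by less at 2 weeks. Itgb1, the partner of most alpha chains here, was not called in either fit, and lay at 11.13 and 11.65 in FFV and 11.53 and 11.20 in SF, against 11.30 and 11.54 in FBS. Cardiomyocyte markers moved with medium, with mean levels of 10.68 and 10.29 in FFV and 10.53 and 10.20 in SF at 4 and 2 weeks, against 9.97 and 9.70 in FBS. Fibroblast markers had 8.86 and 8.18 in FFV and 7.36 and 7.52 in SF, against 8.82 and 8.24 in FBS. Their part in the differences was not tested, and in bulk RNA fewer cells of a type and less RNA per cell cannot be told apart.

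FFV minus SF gave 0 of 30 called members, with 0% of all genes called (limma). At an unadjusted p under 0.05 there were 2 of 30, against 5.02% of all genes. They were Itga8, with a log2 difference of -0.54 ± 0.14, and Lamb3, an epithelial laminin chain, with 0.16 ± 0.03 (limma, adjusted p = 0.873 and 0.866). Time, tested on the 6 GMT arrays, gave 0 of 28 members (0% of all genes called, limma) and 1 at an unadjusted p under 0.05, against 8.77% of all genes. This was Itga8, with -0.34 ± 0.10 for 4 minus 2 weeks (adjusted p = 0.552), lower at 4 weeks in all 3 media. Itga6 differed most between times in 1 medium, at 8.21 at 4 weeks, against 9.37 at 2 weeks, in FFV, but the other way in SF (9.51 against 9.19).

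FFV minus FBS was then compared between GMTMM and GMT iCMs by an interaction term in limma. This called 8 of 30 members, 6 with a lower and 2 with a higher difference in GMTMM iCMs, while 9.59% of all genes were called, 4.16% lower and 5.43% higher. The median interaction was -0.10 over the 30 members and -0.01 over all genes. The GMTMM side is 1 pair of arrays that the model fits exactly, so the error comes from the GMT arrays alone, and all 8 calls were lost with the surround subtracted or without a mean-variance trend. Lama2 had 0.16 for FFV minus FBS in GMTMM iCMs, against 1.17 and 1.34 in GMT iCMs at 4 and 2 weeks (interaction -1.09 ± 0.24, limma, adjusted p = 0.0407). Itga7 had -0.47 in GMTMM iCMs, against 0.77 and 0.38 in GMT iCMs (-1.04 ± 0.24, adjusted p = 0.0492). Lama4 had 0.52 in GMTMM iCMs, against -0.39 and -0.21 in GMT iCMs (0.83 ± 0.18, adjusted p = 0.0426). For Itga7 and Lama4 the difference thus had opposite signs in GMTMM and GMT iCMs, and for Lama2 it was positive in all 3 pairs. Lama1, an embryonic laminin chain, had -0.48 in GMTMM iCMs, against 0.03 and 0.06 in GMT iCMs (-0.52 ± 0.09, adjusted p = 0.0231), and its FBS array in GMTMM iCMs was its highest at 6.74 and the other 12 arrays lay at 6.07 to 6.34. Itga2b, the platelet fibrinogen receptor chain, and Itga4, a leukocyte chain that binds VCAM1, were dim, at 5.72 to 6.09 and 5.75 to 5.92 over the arrays, and their interactions were 0.18 ± 0.03 and -0.18 ± 0.03 (adjusted p = 0.0254 and 0.0211). Itga2b was well above background on both GMTMM arrays but on 1 of the 6 GMT arrays, so it entered the test through the GMTMM arrays, its GMT values are at background, and its call carries no weight. Itga4 had 5.763 in GMTMM iCMs in FFV, where the lowest level well above background was 5.755, so its difference also lies near background.

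**Figure D3:**
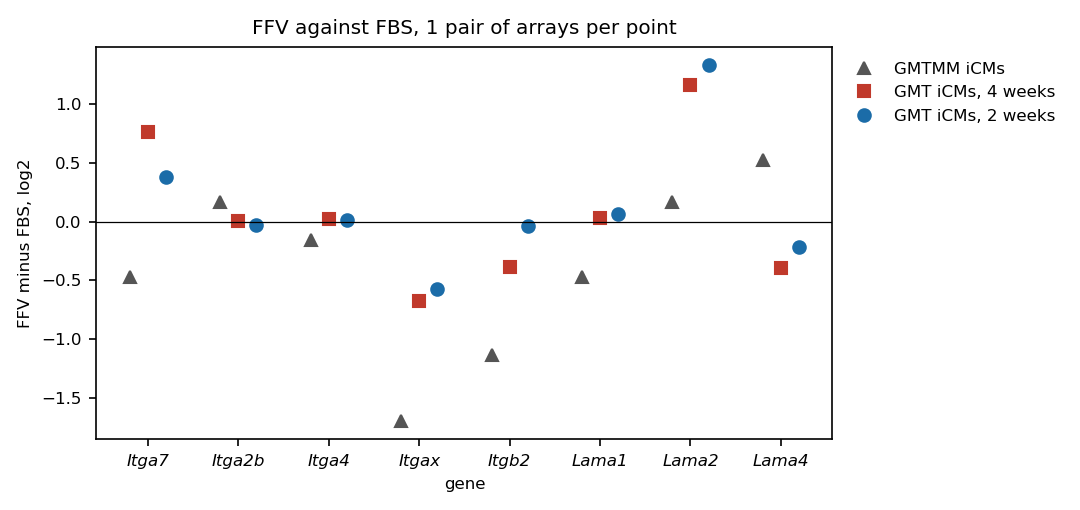
FFV minus FBS (log2) for the 8 members called by the interaction, with 1 pair of arrays per point. Triangles are GMTMM iCMs, squares GMT iCMs at 4 weeks and circles GMT iCMs at 2 weeks. Itgax and Itgb2 are lowest in GMTMM iCMs, and Itga7 and Lama4 have opposite signs in GMTMM and GMT iCMs.

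The leukocyte chains Itgax (CD11c) and Itgb2 (CD18, its beta partner) were the other members called. Itgax had 5.85 in FFV, against 7.55 in FBS, in GMTMM iCMs, and 5.96 and 5.97 in FFV and 5.96 and 6.07 in SF, against 6.64 and 6.54 in FBS, in GMT iCMs at 4 and 2 weeks. Its interaction was -1.08 ± 0.12 (limma, adjusted p = 0.00484). Itgb2 had 5.95 in FFV, against 7.08 in FBS, in GMTMM iCMs, and 5.78 and 5.81 in FFV and 5.79 and 5.86 in SF, against 6.17 and 5.85 in FBS, in GMT iCMs (interaction -0.92 ± 0.16, adjusted p = 0.0199). Both chains were thus highest among iCMs in the GMTMM iCMs in FBS. There the Itgax spot read 166 and its surround 153, against 44.2 and 41.2 in GMTMM iCMs in FFV. The MT iCMs, though in FFV, had 6.52 for Itgax, near the GMT iCMs in FBS, and 5.86 for Itgb2. Their Itgax spot read 80.7 and its surround 66.2. Among the other cells Itgb2 had 7.23 in MEFs and 6.61 in TTFs, whereas Itgax had 5.83 in MEFs and 6.75 in TTFs. The macrophage chain Itgam had 5.99 in GMTMM iCMs in FBS, 5.94 in GMT iCMs at 4 weeks in FBS, 6.33 in MEFs and 6.07 in TTFs and lay at 5.77 or below on the other 9 arrays. Macrophage markers moved with Itgb2 between media in GMTMM iCMs and in GMT iCMs at 4 weeks. In GMT iCMs at 2 weeks Itgb2 lay at 5.81 to 5.86 in all media, while the markers were higher in FBS. The mean level of the 11 measured markers was 6.25 in FFV, against 8.61 in FBS, in GMTMM iCMs, and 6.23 and 6.30 in FFV and 6.27 and 6.30 in SF, against 7.77 and 6.70 in FBS, in GMT iCMs. It was 9.58 in MEFs, 8.29 in TTFs and 6.24 in MT iCMs. The marker C1qa was at 9.46 in GMTMM iCMs in FBS and at 11.60 in MEFs, and 10 or 11 of the 11 markers were above background on every array. Their part in the levels of Itgb2, Itgax and Itgam was not tested.

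Set beside MEFs, the GMT iCMs had more Lama2 and less Itgb2. Over the 6 GMT arrays Lama2 lay between 7.22 and 8.87, against 5.94 in MEFs, a mean difference of 2.27 (4.82-fold) and 1.29 to 2.93 over the pairs. Itgb2 lay between 5.78 and 6.17, against 7.23 in MEFs (-1.35). No test is possible with 1 MEF array, so a gene was called when each pair differed in the same direction by 2-fold or more and the brighter array was well above background. These 2 were the members called of 31, and 4.88% of all genes were called. With the surround subtracted neither was, at 0.14 for Lama2 and -0.80 for Itgb2. Itga6 lay between 8.13 and 9.51, against 7.23 in MEFs, above MEFs in all 6 pairs by 0.90 to 2.28. However, its spot read 272 and its surround 271 in GMT iCMs at 4 weeks in FBS, against 126 and 91.6 in MEFs. The spot thus exceeded its surround by less there than in MEFs. Lama4 was below MEFs in every pair, with 6.92 to 7.51 in GMT iCMs, against 8.30 in MEFs. Itga9, whose product binds tenascin C, lay between 7.45 and 7.72, against 6.77 in MEFs. Itga6 and Lama4 missed the call because at least 1 pair was under 2-fold, and Itga9 because all 6 pairs were (0.67 to 0.95). Itgb1 overlapped MEFs, at 11.13 to 11.65 in GMT iCMs, against 11.27 in MEFs.

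**Figure D4:**
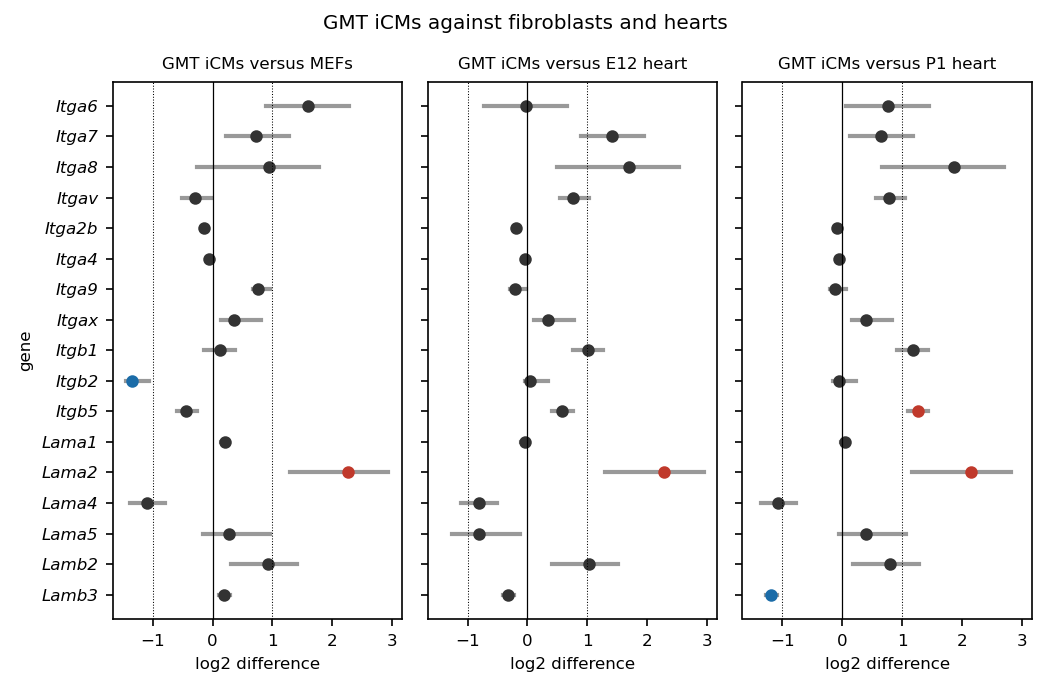
Log2 differences of GMT iCMs from MEFs, the E12 heart and the P1 heart for the 17 members described. Points are means over 6 pairs of arrays that share the array on the lower side of the subtraction, bars run over the pairs, dotted lines mark 2-fold, and red and blue points are members called higher and lower. Lama2 is the member called higher in all 3 panels.

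The MT iCMs differed from MEFs in 8 of 32 members, while 9.28% of all genes were called. The 6 higher members stand beside 4.79% of all genes and the 2 lower ones beside 4.49%. Higher were Lama2, with 8.21 in MT iCMs, against 5.94 in MEFs, Lamb2 (12.86 against 10.72), Itga9 (8.47 against 6.77), Itgb5 (12.11 against 10.58), Itga8 (9.30 against 8.02) and Itga7 (8.95 against 7.85). The muscle laminin chains Lama2 and Lamb2 and the muscle laminin receptor chain Itga7 are among these 6. The P1 and E12 hearts did not share these levels. They had 6.05 and 5.92 for Lama2, 10.84 and 10.62 for Lamb2 and 7.94 and 7.18 for Itga7, all below the MT iCMs. Lower were Lama4, with 6.65 in MT iCMs, against 8.30 in MEFs, and Itgb2 (5.86 against 7.23). The MT iCMs held the highest level of the series for Itgb5, the beta chain of the vitronectin receptor alpha v beta 5, for Lamb2, for Itga9 and for Itgb1 (11.92). Itgb5 stood apart most, with 12.11 in MT iCMs and 8.88 to 10.58 on the other 12 arrays. With the surround subtracted, Lama2 (1.12), Lamb2 (1.80), Itga9 (1.28) and Itgb5 (1.295) were called, as was Itgb1 (2.22), while Itga8 was at -0.072, and Itga7 (0.14), Lama4 (-0.99) and Itgb2 (-0.76) were not called. In FFV medium, Itga6 was lower in MT iCMs (6.90) than in GMT iCMs (8.21 at 4 weeks and 9.37 at 2 weeks), while Itga8 and Lama2 in MT iCMs lay within 2-fold of both. MT iCMs and MEFs lie on different array series.

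GMTMM iCMs, compared with TTFs on the same array series, had 0 of 31 members at least 2-fold apart in both pairs, while 1.91% of all genes were. Lama2 had 6.04 and 5.88 in GMTMM iCMs in FFV and FBS, against 5.998 in TTFs. Itga8 had 7.58 and 6.62, against 6.94 in TTFs, and Lamb2 had 11.40 and 11.02, against 11.83 in TTFs. For Lama2 and Itga8 the TTF array lay between the GMTMM arrays, and for Lamb2 it lay above both. Itga6 was above TTFs in both, at 6.68 and 7.49, against 6.38 in TTFs. Without the FFV array 1 member, Itga6, was called.

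Against the hearts, GMT iCMs again had more Lama2. Its level was 6.05 in the P1 heart and 5.92 in the E12 heart, as low as in fibroblasts, so GMT iCMs were higher by 2.16 than the P1 heart and by 2.29 than the E12 heart. Lama2 was the 1 member called of 30 against the E12 heart, with 6.87% of all genes called. Against the P1 heart 3 of 31 members were called, with 7.03% of all genes. They were Lama2, Itgb5 (9.98 to 10.32 in GMT iCMs, against 8.88 in the P1 heart) and Lamb3 (5.82 to 6.01 in GMT iCMs, against 7.10 in the P1 heart). With the surround subtracted Lama2 was 0.19 and 0.20 above the P1 and E12 hearts and lost both calls, Lamb3 was at -0.17, and Itgb5 kept its call (1.46). Itga8 was above both hearts in every pair, with 7.76 to 9.80 in GMT iCMs, against 7.10 in the P1 heart and 7.27 in the E12 heart, but below 2-fold in the pair with the lowest difference. Itgb1 was likewise above both, with 11.13 to 11.65 in GMT iCMs, against 10.21 in the P1 heart and 10.38 in the E12 heart, but with the surround subtracted its difference from the P1 heart was -0.29. The E12 heart had 8.85 for Itga6, within the 8.13 to 9.51 of the GMT iCMs. Lama4 and Lamc1 were lower in GMT iCMs than in both hearts, with 6.92 to 7.51 for Lama4, against 8.28 in the P1 heart and 8.03 in the E12 heart. Endothelial markers, which had a mean level of 5.96 to 6.04 in GMT iCMs, against 8.64 in the P1 heart and 7.78 in the E12 heart, moved with this difference; MEFs, with Lama4 at 8.30, had 5.89 for these markers. Their part was not tested. For Lama4 the spot read 164 and its surround 120 in GMT iCMs at 4 weeks in FBS, against 176 and 134 in the E12 heart. For Lamc1 they read 968 and 169 in GMT iCMs at 4 weeks in FFV, against 809 and 239 in the P1 heart. In these pairs the spot exceeded its surround by more in GMT iCMs, so the lower levels depend on the surround.

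The hearts and fibroblasts were also set beside each other. The P1 heart differed from MEFs in 5 of 32 members, with 12.9% of all genes called. The count was 4 lower and 1 higher, beside 6.75% and 6.1% of all genes. Lower in the P1 heart were Itgb5 (8.88 against 10.58 in MEFs), Itgb2 (5.94 against 7.23), Itgav, the alpha v chain that pairs with Itgb5 (6.18 against 7.26), and Itgb1 (10.21 against 11.27). Lamb3 was 7.10 in the P1 heart and not well above background in MEFs, a difference of at least 2.57-fold, taken against the lowest signal well above background. Itgav and Itgb5, whose products form 1 receptor, were thus both called lower. Itgb1 reversed to 0.48 with the surround subtracted, and Itgav (-0.94), Itgb2 (-0.77) and Lamb3 (0.29) lost their calls. The P1 heart differed from the E12 heart in 1 of 31 members, with 8.9% of all genes called. This was Lama5, with 6.35 in the P1 heart, against 7.55 in the E12 heart, which was -0.05 with the surround subtracted. MEFs differed from TTFs in 3 of 32 members, with 5.4% of all genes called. Itga8 (8.02 in MEFs, against 6.94 in TTFs) and Lama4 (8.30 against 7.27) were higher in MEFs, and Lamb2 (10.72 against 11.83) was lower. With the surround subtracted Itga8 was at 0.91 and lost its call.

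Genes that work with these chains were followed through lists of the pathway, which were chosen with earlier results known. The medium and time fits called 0 genes (limma) of the 26 measured members of the adhesion complex that ties integrins to actin, the 18 basement membrane partners, the 28 integrin ligands, the 11 other laminin receptors, the 8 tetraspanins and the 5 hemidesmosome genes. At an unadjusted p under 0.05, FFV minus SF had 11 of 28 ligands, with a median of 0.51, against 5.02% of all genes. All 8 fibroblast markers tested passed the same threshold in that comparison, with a median of 1.26, and their part in the ligands' levels was not tested. Against MEFs, GMT iCMs had 2 of 26 adhesion complex genes higher and 1 lower, beside 4.88% of all genes called (307 higher and 455 lower of 15604). Lims2, a partner of integrin-linked kinase, was 3.16 higher and the actin crosslinker Actn1 had -1.69. Of the 18 basement membrane partners 4 were higher and 4 lower. The nidogens, which link laminin to collagen IV, moved apart: Nid2 had 12.41 to 13.08 in GMT iCMs, against 9.18 in MEFs, and Nid1 had 7.24 to 8.46, against 11.10 in MEFs. Of the ligands 3 were higher and 9 lower, among them Postn (6.31 to 7.39 in GMT iCMs, against 11.64 in MEFs). Of the 9 fibroblast markers, among which Postn also stands, 8 were lower, with a median of -3.46, and their part in the ligand count was not tested. Of the other laminin receptors Dag1, the dystroglycan gene and a receptor of Lama2 laminins, had 11.42 to 11.74, against 10.03 in MEFs, and Sdc1 had -1.84. In MT iCMs, 9 of 26 adhesion complex genes were higher than in MEFs and 1 lower, beside 4.79% and 4.49% of all genes, led by the tensin Tns1 (12.68 in MT iCMs, against 8.03 in MEFs). Itgb1bp2 (melusin), a muscle protein that binds the Itgb1 tail, was 6.26 to 7.24 in GMT iCMs, against 11.16 in the P1 heart and 9.59 in the E12 heart. In the interaction, 6 of 18 basement membrane partners had a higher difference of FFV minus FBS in GMTMM than in GMT iCMs and 0 a lower one (limma), beside 5.43% and 4.16% of all genes. At an unadjusted p under 0.05 there were 9 of 18, in either direction, against 27.6% of all genes. Smoc2 (1.59), Ntn4 (1.21) and Nid2 and Fbln2 (1.12 each) led them.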

How the data were processed

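RNA of 13 mouse samples, 1 per group, was amplified, coupled to dye and read at 635 nm, per the labels and file headers. The deposited scanner files hold uncorrected intensity for each spot and its surround. For the value table, the labels used here state neither scale nor correction by the authors. Set against the scanner values, its columns were linear intensity proportional to the spot median less background, with a median of 25 each and no value for dim probes. Its log2, after a floor, served as an alternative.

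Spot medians of 27456 spots (2736 blanks) were corrected by normexp (offset 50, no local surround), put on the log2 scale and quantile normalised in R 4.3.3 with limma 3.58.1. Of 23473 probes, 16631 carried 1 symbol (12622 current, 3947 updated, 62 unmatched) and 6842 none. Members, and the lists and alternatives, were chosen with earlier results of these data known. Each member has 1 probe, so choosing the brightest changed nothing.

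Medium (8 iCM arrays, terms context and medium, 3 residual degrees of freedom), time (6 GMT arrays, 2) and the interaction of FFV with GMTMM (8 arrays, 2) were tested two-sided with limma, with a mean-variance trend, on genes well above background (blank mean plus 2 SD) in at least 2 arrays, with Benjamini-Hochberg adjustment over all genes at 0.05. Other comparisons have no test. Members were described in full when called in a comparison or when their range was at least 2 on the log2 scale, and other genes were named from the lists and the cell type markers, at most 4 a list and comparison by size of difference among those called. Data were simulated with 15267 genes, of which 100 changed 2-fold and 100 changed 4-fold. The FFV minus FBS test found 72% of the genes changed 2-fold and 95% of those changed 4-fold, and the interaction test found 27% and 45%. In the measured data Itga8, at 1.14 ± 0.12, was not called for FFV minus FBS, so these shares need not hold for them. Alternatives were the offset, a floor, the surround, median scaling, no filter, no trend, the value table and leaving out arrays. The number of arrays limits precision.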

Additional observations from a re-analysis of the deposited data

Results flagged for a closer look

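The difference of FFV minus FBS differed between GMTMM and GMT iCMs for 8 members by the interaction term of limma. On the log2 scale, as GMTMM minus GMT, the values were -1.04 for Itga7, 0.18 for Itga2b, -0.18 for Itga4, -1.08 for Itgax, -0.92 for Itgb2, -0.52 for Lama1, -1.09 for Lama2 and 0.83 for Lama4. Itga2b was well above background on 1 of the 6 GMT arrays and entered the test through the GMTMM arrays, so its value is set against background and is not supported. Itga4 had 5.763 in GMTMM iCMs in FFV, where the lowest level well above background was 5.755, so its value also lies near background. Each of the 8 values rests on 1 GMTMM pair of arrays, and cell of origin, factors and array series cannot be told apart in it.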

How the results depend on the processing

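Counts of called members moved with the background correction and in the deposited value table, and the cause was not tested. The share of all genes called under each setting is not given here. The counts therefore describe the settings and cannot be read as results about the members. With an offset of 16 they were 1 for FFV minus FBS, 4 for GMT iCMs minus MEFs, 2 for GMT iCMs minus the E12 heart, 9 for the P1 heart minus MEFs, 3 for the P1 minus the E12 heart and 6 for MEFs minus TTFs. With the blank mean subtracted and a floor they were 1 for FFV minus FBS, 2 for SF minus FBS, 4 for the interaction, 12, 17 and 13 for GMT iCMs, MT iCMs and the P1 heart minus MEFs, 2 for GMTMM iCMs minus TTFs, 4 and 8 for GMT iCMs minus the E12 and P1 hearts, 10 for the P1 minus the E12 heart and 12 for MEFs minus TTFs. With the surround subtracted they were 0 for SF minus FBS, the interaction, GMT iCMs minus MEFs, GMT iCMs minus the E12 heart and the P1 minus the E12 heart, 5 for MT iCMs minus MEFs, and 1 each for GMT iCMs minus the P1 heart and the P1 heart minus MEFs. Itga8 in MT iCMs minus MEFs then reversed to -0.072 and Itgb1 in the P1 heart minus MEFs to 0.48. In the deposited value table they were 1 for FFV minus FBS, 2 for SF minus FBS, 11, 18 and 11 for GMT iCMs, MT iCMs and the P1 heart minus MEFs, 1 for GMTMM iCMs minus TTFs, 5 and 10 for GMT iCMs minus the E12 and P1 hearts, 8 for the P1 minus the E12 heart and 12 for MEFs minus TTFs. Without a mean-variance trend SF minus FBS and the interaction had 0. With median scaling GMT iCMs minus the E12 heart had 3, and the share of higher calls over all genes was 67.5% rather than 46.5%, 73.6% rather than 41.8% for GMT iCMs minus the P1 heart, 27.0% rather than 47.5% for the P1 heart minus MEFs and 34.3% rather than 51.8% for MEFs minus TTFs. Leaving out 1 context or array gave 0 to 5 for FFV minus FBS and 0 to 7 for SF minus FBS, both highest without GMTMM, and 0 to 1 for GMTMM iCMs minus TTFs. The interaction without a GMT time could not be fitted. Of 248 values of single members, 200 kept direction and call and 31 lost the call. The medium fits already compare media within contexts. No paired analysis was possible because the labels number no replicates, with 1 array per group.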
